A study of Homo sapiens with 6 samples.

Results

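AluS elements are the middle-aged branch of the Alu family, the most numerous short interspersed elements of primate genomes. The AluS loci were taken as every locus in the repeat count tables whose repeat name begins with AluS, whatever its reads. There were 66005 of them under 17 repeat names, among 433837 loci under 5230 names in all, or 15.2% of the listed loci. Every listed locus had a read in at least 1 library, so AluS copies with no read are not counted here.

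The cells were HEK293T, an embryonic kidney line labelled wild type in the controls and U7 snRNA knockdown in the other group. In the U7 ASO group, 3 libraries came from cells transfected at 100 nM with a chemically modified chimeric antisense oligonucleotide (ASO) against U7 small nuclear RNA, the RNA of the particle that processes histone transcript ends. In the control ASO group, 3 libraries came from cells that received an ASO against GFP, at the dose the protocol gives for the U7 ASO. Total RNA was depleted of ribosomal RNA before library construction in all 6, and each group's 3 libraries are biological replicates per the series' design text. The study was about LTR12 elements, which are the terminal repeats of HERV9 proviruses, and about lincRNAs; its 2 groups are compared here for AluS.

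An Alu element is a dimer descended from 7SL, the RNA of the signal recognition particle, and it was copied into new places by the reverse transcriptase of L1 elements. AluJ is the oldest branch, AluS spread after it, and AluY is the youngest. A full Alu carries an internal promoter for RNA polymerase III, but many copies lie in introns and untranslated regions and are carried passively in transcripts of RNA polymerase II. The counts do not tell these kinds of RNA apart. Nor do they tell more cells with a given RNA from more of that RNA per cell.

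The reads counted over all repeat loci numbered between 2089822 and 2819540 in the U7 ASO libraries and between 1926892 and 2025985 in the control ASO libraries. 7SK RNA took 16.5% to 19.5% of them with the U7 ASO and 19.8% to 21.6% in the controls. Large-subunit ribosomal RNA took 17.7% to 21.8% with the U7 ASO, and its lowest share was 12.1%, in control ASO replicate 3. LTR12 and HERV9 loci took 2.01% to 3.18% with the U7 ASO and 0.213% to 0.266% in the controls. U7 snRNA itself could not be checked, since its 16 listed loci together had 10, 4 and 6 reads with the U7 ASO and 10, 6 and 12 with the control ASO.

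AluS RNA as a whole was somewhat more abundant in the U7 ASO libraries, but the difference did not pass the test. AluS loci took 4.87%, 5.98% and 5.85% of the repeat reads in U7 ASO replicates 1, 2 and 3, and 4.18%, 4.70% and 4.21% in control ASO replicates 1, 2 and 3. The exact Clopper-Pearson 95% intervals of these shares were narrow, from 4.84% to 6.01% over the U7 ASO libraries and from 4.15% to 4.73% over the controls. They cover counting error only. Each read was taken as a separate count, so they are too narrow if both mates of a pair were counted. After scaling, the sum over all AluS loci was 47858, 57727 and 58728 CPM (counts scaled to library size) in the U7 ASO libraries, against 45319, 48553 and 40182 CPM in the control ASO libraries. U7 ASO replicate 1 lay below control ASO replicate 2, so the groups overlapped. The means were 54771 ± 6008 CPM with the U7 ASO and 44685 ± 4221 CPM in the controls (SD, n = 3 each), a ratio of 1.23. The log2 fold change was 0.29 (SE 0.12, 95% interval 0.05 to 0.54), with an adjusted p of 0.227 in edgeR's quasi-likelihood test over 2239 repeat names and family sums.

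That outcome changed in 1 alternative only, the fit without U7 ASO replicate 1. It is the lowest library of the higher group, so removing it raises the difference by construction. Without it the log2 fold change was 0.39 and the AluS sum passed (adjusted p = 0.00455), whereas over all 16 alternatives the adjusted p ran up to 0.634. The fold change stayed positive in each of them, between 0.23 and 0.39.

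AluJ and AluY, the older and younger branches, had differences of similar size. The AluJ sum was 27984, 35237 and 35837 CPM in the U7 ASO libraries and 26635, 27747 and 27125 CPM in the controls (log2 fold change 0.28, SE 0.12, adjusted p = 0.272). The AluY sum was 6103, 7327 and 7276 CPM in the U7 ASO libraries and 5487, 6016 and 4004 CPM in the controls (log2 fold change 0.42, SE 0.16, adjusted p = 0.207). In both families the groups did not overlap, the U7 ASO libraries being the higher. Ratios within a library, which need no scaling, were then compared. The log2 ratio of AluS to AluY reads was 2.99 ± 0.02 with the U7 ASO and 3.13 ± 0.17 in the controls (SD, n = 3 each, exact two-sided permutation p = 0.200, adjusted p = 0.400 over 4 within-library measures). That of AluS to AluJ reads was 0.73 ± 0.04 with the U7 ASO and 0.71 ± 0.13 in the controls (difference 0.02, exact permutation p = 0.900, adjusted p = 0.900). With 3 libraries against 3 this test cannot give a p below 0.1. No difference between AluS and either branch was detectable at this sample size.

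**Figure D1:**
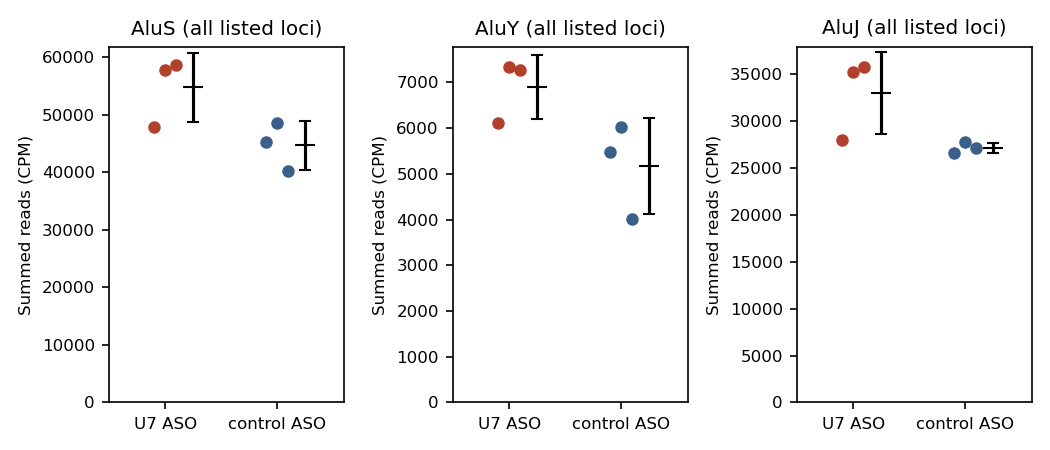
Summed reads of all listed AluS, AluY and AluJ loci in CPM after scaling, on axes from 0. Points are the 3 libraries of each group, bars the mean and SD. The AluS groups overlap because U7 ASO replicate 1, at 47858 CPM, lies below control ASO replicate 2, at 48553 CPM.

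The 17 AluS repeat names, subfamilies told apart by diagnostic base changes, were compared next. Of these, 15 had a positive log2 fold change, between 0.14 and 0.43, and 2 a negative one, with a median of 0.31 beside a median of -0.01 over all 2236 names tested. None of the 17 passed in either direction in edgeR's test, where 1.52% of all names were raised and 1.03% were lowered. An unadjusted p under 0.05 was found for 7 of the 17, and for 14.6% of all names tested. The 7 included AluSq4, whose log2 fold change was negative. DESeq2 and limma-voom also called 0 of the 17. The libraries are the same for every name, so the 17 values are not 17 separate trials.

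AluSx1, AluSz and AluSx were the largest names. They held 12097, 11007 and 10832 listed loci and 17.7%, 17.8% and 17.7% of the AluS reads. AluSx1 had 8425, 10403 and 10579 CPM in the U7 ASO libraries and 8110.3, 8551 and 6748 CPM in the controls (log2 fold change 0.33, SE 0.14, adjusted p = 0.276). AluSz had 8093, 10129 and 10352 CPM with the U7 ASO and 8338, 8632 and 7515 CPM in the controls (log2 fold change 0.22, SE 0.14, adjusted p = 0.493). AluSx had 8747, 9992 and 9897 CPM with the U7 ASO and 8347, 8801 and 7289 CPM in the controls (log2 fold change 0.23, SE 0.13, adjusted p = 0.444). In each of these 3 names U7 ASO replicate 1 fell within the range of the controls.

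The groups did not overlap for 6 names, AluSq2, AluSz6, AluSp, AluSx3, AluSc8 and AluSg7, each with the U7 ASO libraries above the controls, and none lay wholly below them. Of all names tested, 9.93% lay wholly above and 10.2% wholly below. AluSz6 had the highest log2 fold change of the 17. It had 3227, 4223 and 4298 CPM in the U7 ASO libraries, against 2671, 3222 and 2811 CPM in the controls (log2 fold change 0.43, SE 0.16, adjusted p = 0.191). Its lowest U7 ASO library was only just above its highest control library. AluSc8 had 1355, 1519 and 1597 CPM with the U7 ASO and 1126, 1256 and 954 CPM in the controls (log2 fold change 0.42, SE 0.17, adjusted p = 0.234). On the log2 scale AluSp differed by 0.39 (SE 0.15, adjusted p = 0.237), AluSx3 by 0.38 (SE 0.16, adjusted p = 0.255), AluSq2 by 0.33 (SE 0.15, adjusted p = 0.317) and AluSg7 by 0.31 (SE 0.19, adjusted p = 0.470). Without U7 ASO replicate 1, AluSz6, AluSp and AluSx1 passed, with adjusted p-values of 0.0120, 0.0374 and 0.0298. Over the 16 alternatives the adjusted p ran up to 0.613 for AluSz6, 0.677 for AluSp and 0.702 for AluSx1.

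The other names with a positive value overlapped between groups. AluSg, AluSc, AluSq, AluSx4 and AluSg4 lay between 0.29 and 0.36 on the log2 scale, with adjusted p-values from 0.396 to 0.437. AluSc5, with 536 listed loci, had 259, 406 and 383 CPM in the U7 ASO libraries and 336, 377 and 238 CPM in the controls (log2 fold change 0.14, SE 0.23, adjusted p = 0.843). Its value turned to -0.02 without control ASO replicate 3.

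The 2 names with a negative value were the 2 with the fewest loci. AluSq10, with 165 listed loci, had 74.8, 119 and 107 CPM in the U7 ASO libraries and 163, 96.6 and 98.9 CPM in the controls (log2 fold change -0.25, SE 0.28, adjusted p = 0.754). Control ASO replicate 1 alone was high, and without it the value was 0.05. AluSq4, with 196 listed loci, had 135, 177 and 168 CPM with the U7 ASO and 133, 128 and 824 CPM in the controls (log2 fold change -1.18, SE 0.47, adjusted p = 0.238). Control ASO replicate 3 stood apart there, and 1 locus accounted for it.

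That locus, AluSq4_dup56_1753409, held 1408 reads in control ASO replicate 3 and 0 in each of the 5 other libraries. It was chosen for mention after its values were seen. It carried 41.6% of all AluSq4 reads. Without it AluSq4 had 159.9 ± 22.0 CPM with the U7 ASO and 135 ± 8.71 CPM in the controls (SD, n = 3 each). Of the 498 AluS loci with 100 or more reads in all, it was the only 1 with at least 90% of them in a single library.

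**Figure D2:**
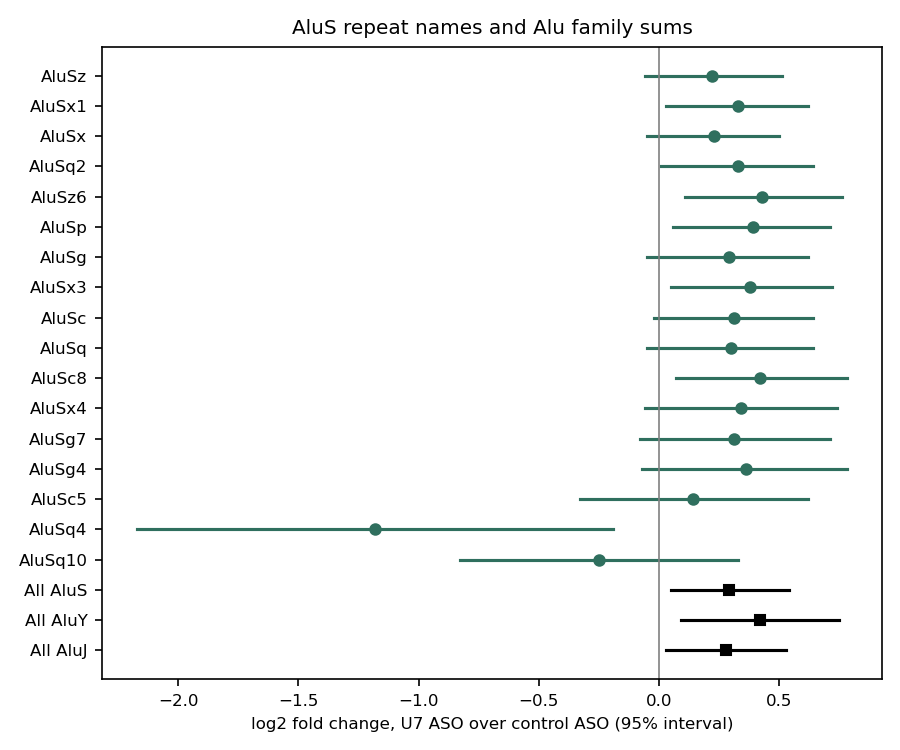
Log2 fold change, U7 ASO over control ASO, for the 17 AluS repeat names (circles, by falling read number) and the sums of the 3 Alu families (squares), with 95% intervals from the quasi-likelihood fit. All names lie between 0.14 and 0.43 except AluSq4 at -1.18 and AluSq10 at -0.25.

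AluS reads were spread thinly over very many loci. In total 665718 reads fell on the 66005 loci, and 69.3% of the loci had a read in 1 library only. Only 1007 loci had a read in all 6. The number of AluS loci with a read was 15452, 23178 and 23003 in the U7 ASO libraries and 12516, 16267 and 11797 in the controls. Since the U7 ASO libraries were deeper, each library was reduced to the smallest total of repeat reads by computing the expected number of loci. That gave 15278, 22554 and 21744 AluS loci with the U7 ASO and 12422, 16267 and 11764 in the controls (exact permutation p = 0.200, adjusted p = 0.400). U7 ASO replicate 1 again lay below control ASO replicate 2.

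Loci were next put in classes by their total reads over all 6 libraries, and the difference between groups was smallest for the loci with the most reads. Loci with 3 to 9 reads, 43.5% of the AluS loci, summed to 13565 ± 2812 CPM with the U7 ASO and 9379 ± 1881 CPM in the controls (SD, n = 3 each), a log2 ratio of means of 0.53. Loci with 10 to 29 reads summed to 17958 ± 3573 CPM with the U7 ASO and 13757 ± 859 CPM in the controls, a log2 ratio of 0.38. The log2 ratio was 0.38 for loci with 1 or 2 reads and 0.21 for those with 30 to 99. The 498 loci with 100 or more reads held 22.3% of the reads and summed to 11239 ± 1035 CPM with the U7 ASO and 11449 ± 1147 CPM in the controls, a log2 ratio of -0.03. The means plus and minus 1 SD overlapped in every class, and no test was run across them. The 10 loci with the most reads took 5.96%, 3.18% and 2.93% of AluS reads in the U7 ASO libraries and 5.73%, 5.27% and 6.06% in the controls (exact permutation p = 0.300, adjusted p = 0.400).

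The most abundant single loci did not pass the test. AluSx_dup2746_3031736 led with 2060, 882 and 1328 reads in the U7 ASO libraries and 1241, 1120 and 1069 in the controls (log2 fold change 0.20, SE 0.31, adjusted p = 0.928). U7 ASO replicate 1 was the highest library and replicate 2 the lowest. AluSx_dup2035_57076 had 458, 490 and 380 reads with the U7 ASO and 606, 811 and 366 in the controls (log2 fold change -0.55, adjusted p = 0.608), and AluSx_dup995_927965 had 496, 457 and 340 with the U7 ASO and 691, 624 and 447 in the controls (log2 fold change -0.56, adjusted p = 0.516). AluSz_dup2228_4694021 was at 0.19 (adjusted p = 0.934). AluSx_dup1590_4652778 had 586, 603 and 477 reads with the U7 ASO and 342, 341 and 400 in the controls. Its scaled values did not overlap, yet it did not pass either (log2 fold change 0.51, SE 0.26, adjusted p = 0.499).

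Only 1013 AluS loci, 1.53% of those listed, had enough reads to be tested singly, and 64992 did not. These 1013 held 22.9% to 31.8% of AluS reads in the U7 ASO libraries and 29.4% to 32.5% in the controls. The filter keeps a locus with enough reads in any 3 libraries, so a locus silent in the controls could enter only if all 3 U7 ASO libraries were high. Of the 1013, the test called 33 raised and 2 lowered, and left 978 without a call (edgeR quasi-likelihood test, adjusted p under 0.05 over 14380 loci). The raised share, 3.26%, stood beside 4.49% of all tested loci, and the lowered share, 0.197%, beside 0.473%. An unadjusted p under 0.05 was found for 103 AluS loci, 10.2% of those tested, beside 12.3% of all loci. All 3 U7 ASO values lay above all 3 control values at 14.7% of the AluS loci and below them at 4.94%, beside 12.2% and 8.36% of all tested loci. The median log2 fold change of the tested AluS loci was 0.24, against 0.06 over all tested loci. It was also 0.24 when the 23 loci with 0 reads in a whole group were set to their bound. Among 115 tested AluY loci the median was 0.24, with 4 raised (3.48%) and 1 lowered. Among 756 tested AluJ loci it was 0.16, with 17 raised (2.25%) and 0 lowered. Alu copies are alike in sequence, so the assignment of a read to 1 copy is uncertain at any single locus.

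The number of raised AluS loci moved by over 1.5 times with single libraries and with the tool. It was 11 without U7 ASO replicate 1, 18 without replicate 2 and 13 without replicate 3. Those fits had fewer libraries and other sets of tested AluS loci, 1782, 1659 and 1659 in place of 1013, so their counts are not strictly alike. Limma-voom called 7, all among the 33, and DESeq2 called 45, which included all 33.

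Of the 33 raised loci, AluSx and AluSx1 held 8 each, AluSc, AluSp, AluSq2 and AluSz6 held 3 each, AluSz and AluSx3 held 2 each and AluSq held 1. Together, on the scale of the family sums, they had 704 ± 97.2 CPM with the U7 ASO and 33.0 ± 6.28 CPM in the controls (SD, n = 3 each). They carried 6.65% of the 10086 CPM by which the AluS means differed. In 20 of them the controls held 0 reads in all 3 libraries, in 7 they held 1 to 3 reads, and in 6 they held more. Among the 991 tested loci with a control read, 13 were raised. Of these 13, 7 held only 1 to 3 control reads and entered the test through the U7 ASO libraries alone. The raised share of all tested loci with a control read was not computed.

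**Figure D3:**
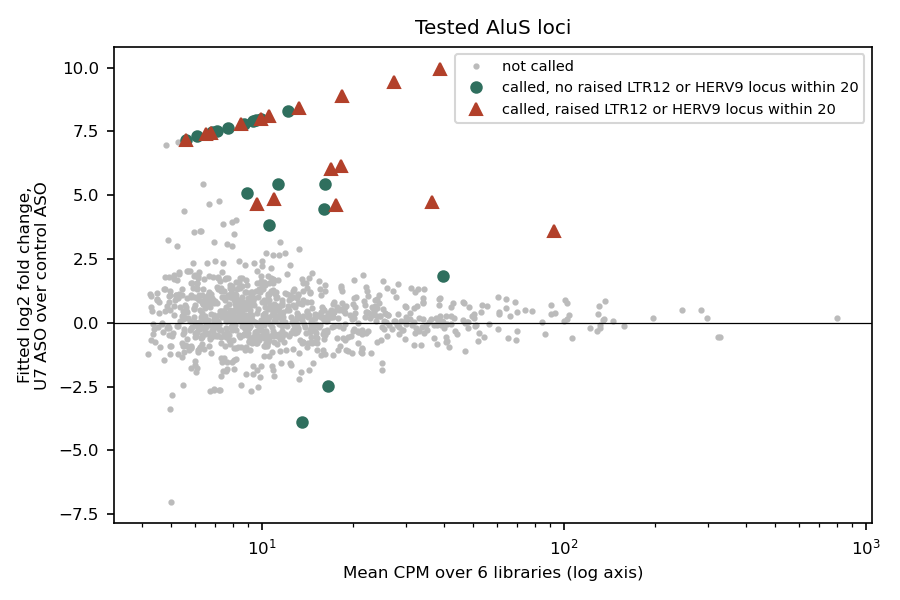
Each of the 1013 tested AluS loci by mean CPM over 6 libraries (log axis) and fitted log2 fold change, U7 ASO over control ASO. The 33 raised and 2 lowered loci are marked, with triangles for the 17 that have a raised LTR12 or HERV9 locus at most 20 running numbers off. Fitted values of the 20 raised loci without control reads depend on the prior count and are no measure of size.

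AluSx1_dup206_3713267 was the leading raised locus by fitted fold change. It held 133, 90 and 169 reads in the U7 ASO libraries and 0 in every control. That makes it at least 119.8-fold higher against a floor of 3 reads over the control group (adjusted p = 2.39e-05). Its running number was 3 above that of LTR12C_dup5_3713264, which was also raised. The 119.8-fold bound and those below pool the 3 libraries of a group and leave out their spread. They count each read singly, so a floor of 3 pairs of mates would give lower bounds. AluSx1_dup56_1219723 held 63, 86 and 129 reads in the U7 ASO libraries and 0 in every control, at least 85.0-fold higher (adjusted p = 6.75e-05). It stood 2 numbers above LTR12C_dup2_1219721, with the raised AluJr_dup9_1219722 between them. AluSp_dup2737_4777834 held 59, 16 and 116 reads with the U7 ASO and 0 in the controls, at least 58.4-fold higher (adjusted p = 0.00113). It lay in a block of raised loci with MLT1J1_dup115_4777836, MLT1J1-int_dup16_4777837, MLT1J1_dup116_4777838, AluSx1_dup5948_4777839 and LTR12C_dup44_4777840. MLT1J1 is the long terminal repeat of an old retroviral group.

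The other 7 of the 10 leading raised loci had no control reads either. The 10 were ranked by fitted fold change, which ran highest where the controls held no reads. Their lack of control reads therefore follows from the ranking. AluSc_dup892_3342884 was at least 41.0-fold higher, AluSz_dup2866_103781 at least 37.9-fold, AluSq2_dup449_4930909 at least 33.3-fold and AluSz6_dup429_1897605 at least 31.5-fold. AluSx_dup3756_1087630, AluSc_dup757_3050803 and AluSx1_dup5681_260845 were at least 30.3-fold, 29.3-fold and 28.1-fold higher. Of the 10, 3 kept their call in all 14 alternatives, AluSx1_dup206_3713267, AluSx1_dup56_1219723 and AluSz_dup2866_103781. The other 7 lost it with limma-voom or without a U7 ASO library, with adjusted p-values up to 0.226.

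Raised loci with more control reads give folds rather than bounds. AluSx3_dup49_4439933 held 261, 255 and 346 reads in the U7 ASO libraries, against 10, 12 and 43 in the controls (log2 fold change 3.61, SE 0.48, adjusted p = 0.000290). Even its lowest U7 ASO library was well above control ASO replicate 3, the highest control. Its neighbour by number, LTR12C_dup1_4439934, was raised. AluSx1_dup5948_4777839, in the block with MLT1J1 above, held 166, 82 and 102 reads with the U7 ASO and 10, 1 and 1 in the controls (log2 fold change 4.72, SE 0.71, adjusted p = 0.000769). AluSz6_dup1132_4697161 held 93, 113 and 107 reads with the U7 ASO and 34, 33 and 12 in the controls (log2 fold change 1.85, SE 0.46, adjusted p = 0.0303). It had the smallest rise of the 33, and (TTC)n_dup19_4697162, L2_dup812_4697164 and THE1B-int_dup18_4697171 beside it were raised too. Where the controls held 1 to 3 reads the ratio is loose. AluSx1_dup4717_1141856, next to LTR12C_dup166_1141857, had 186 reads with the U7 ASO and 2 in the controls. The ratio was 85.3 after scaling (exact binomial 95% interval 23.3 to 709). That interval pools the libraries of each group and takes each read as a separate count. It covers read counting only and not the spread among libraries.

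**Figure D4:**
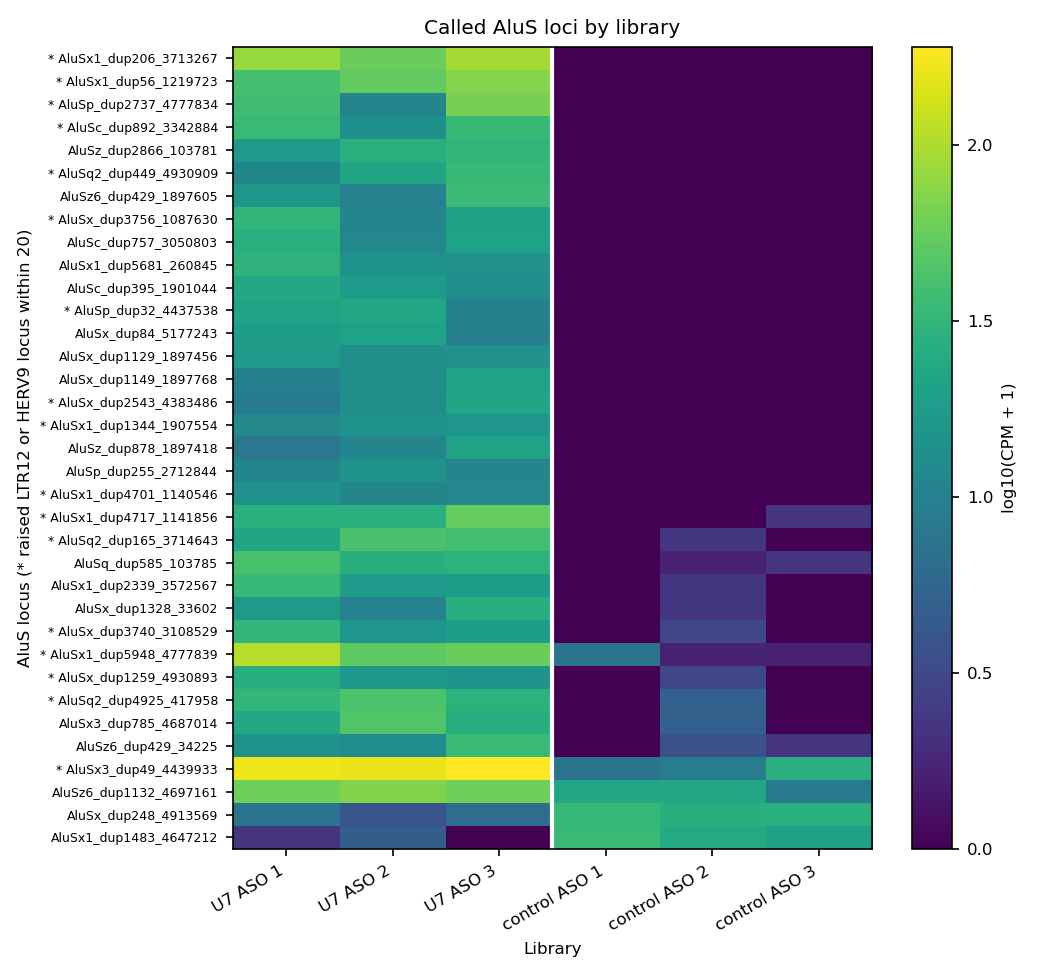
Scaled level of the 35 called AluS loci in each library, as log10 of CPM plus 1, with the U7 ASO libraries on the left. An asterisk marks the 17 loci with a raised LTR12 or HERV9 locus at most 20 running numbers off. The 20 raised loci without control reads form the dark block at the upper right, and the 2 lowered loci are the bottom rows.

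The raised AluS loci were next placed by their closeness to other raised repeats. The tables give no coordinates, so closeness was measured by the running number at the end of a locus identifier, in annotated repeats and not in bases. Copy numbers of a name rose along this numbering at 99.4% of the 65988 steps between consecutive AluS loci of a name, but the sources used here do not state that it follows the genome. At most 20 numbers from a raised LTR12 or HERV9 locus lay 17 of the 33 raised AluS loci (51.5%), 15 of them at most 5 numbers off, and 6 of the 978 that did not pass (0.613%). Of the 33, 20 had no control reads and 7 had 1 to 3, so at least these entered the test through the U7 ASO libraries alone. The LTR12 and HERV9 loci were picked for being raised in those same libraries. The counts by distance are therefore a description only. How many raised loci of other repeats lay as near was not counted, so this closeness is not shown to be particular to AluS. Of the 16 raised loci farther away, 10 had another raised repeat within 20 numbers, 1 had tested neighbours of which none was raised, and 5 had no tested neighbour. Closeness to any raised repeat was not counted for the 978 loci that did not pass, so the 10 have no background beside them. No test was run on these counts, and whether neighbouring loci were read from 1 transcript is not known from the tables.

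The 6 AluS loci beside a raised LTR12 or HERV9 locus that did not pass fell into 2 kinds. AluSz_dup19_4437534 held 14, 14 and 26 reads with the U7 ASO and 0 in the controls, and stood next to the raised LTR12C_4437533. AluSz_dup2796_4980083 held 21, 27 and 30 reads with the U7 ASO and 0, 4 and 0 in the controls, and AluSq_dup362_4363912 held 18, 39 and 17 with the U7 ASO and 0, 0 and 6 in the controls. These 3 were higher in every U7 ASO library. The other 3 overlapped between groups: AluSx3_dup50_4439940 held 10, 37 and 39 reads with the U7 ASO and 28, 22 and 13 in the controls, although it lay only 6 numbers from the raised LTR12C_dup1_4439934. AluSz_dup624_4316511 and AluSq_dup400_66635 had log2 fold changes of 0.54 (SE 1.54) and -0.40 (SE 0.48).

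The reads of all listed AluS loci were then summed by their distance from any listed LTR12 or HERV9 locus. No minimum count and no call was asked of the AluS loci, but each was listed only because it had a read. Within 5 running numbers lay 525 AluS loci, with 2319, 1993 and 3157 reads in the U7 ASO libraries and 255, 318 and 300 in the controls. All 3 U7 ASO libraries were far above all 3 controls. Scaled, these sums were 1011 ± 167 CPM with the U7 ASO and 151 ± 17.8 CPM in the controls (SD, n = 3 each), a ratio of 6.71. Leaving out any 1 library kept the log2 ratio between 2.66 and 2.88. Reads were found at 228, 224 and 255 of the 525 loci with the U7 ASO and at 45, 66 and 41 in the controls. These loci took 2.28%, 1.42% and 1.91% of all AluS reads in the U7 ASO libraries and 0.301%, 0.351% and 0.360% in the controls.

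The difference shrank with distance. At 6 to 20 numbers, 983 AluS loci summed to 864 ± 121 CPM with the U7 ASO and 492 ± 50.3 CPM in the controls, a ratio of 1.76. At 21 to 100 numbers, 3986 loci summed to 3176 ± 422 CPM with the U7 ASO and 2635 ± 297 CPM in the controls, a ratio of 1.21. The 60511 loci beyond 100 numbers summed to 49719 ± 5574 CPM with the U7 ASO and 41407 ± 3866 CPM in the controls, a ratio of 1.20. In the last 2 classes the groups overlapped, since U7 ASO replicate 1 fell among the controls. With all AluS loci within 20 numbers left out, the log2 fold change of the AluS sum was 0.26, against 0.29 with them (adjusted p = 0.296, and 0.00455 to 0.634 over all alternatives), a setting chosen after the data were seen. An LTR12, HERV9 or AluS locus was listed only if it had a read. Most reads of the LTR12 and HERV9 loci, and of the AluS loci within 5 numbers, came from the U7 ASO libraries. The sums by distance are therefore a description only. The part of RNA running through from LTR12 or HERV9 elements in the AluS values was not tested.

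**Figure D5:**
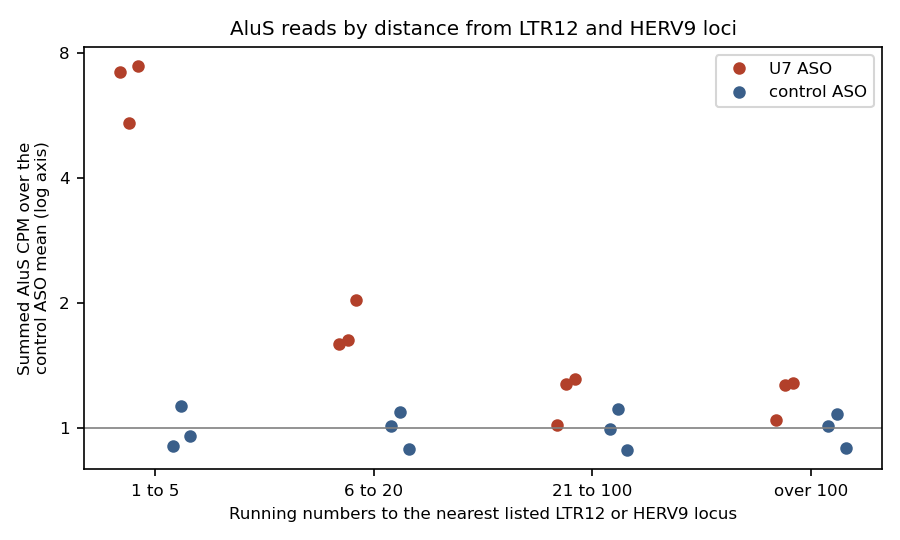
Summed CPM of all listed AluS loci, divided by the control ASO mean of each class (log axis), by running-number distance to the nearest listed LTR12 or HERV9 locus. Points are libraries. At 1 to 5 numbers the group means differ by a ratio of 6.71, at 6 to 20 by 1.76, and farther away by 1.21 and 1.20, with overlapping groups.

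With a gap of 500 running numbers as the divider, chosen after the data were seen, the 33 raised loci formed 27 groups, of which 23 held a single AluS locus. The largest ran over running numbers 1897418 to 1897768 and held 4 raised AluS loci, AluSz_dup878_1897418, AluSx_dup1129_1897456, AluSz6_dup429_1897605 and AluSx_dup1149_1897768. Each held 0 reads in all controls, and between 11 and 64 reads in every U7 ASO library. Of the 12 loci tested in that stretch 8 were raised, among them L1ME4b_dup207_1897483 with 68, 68 and 114 reads with the U7 ASO and 0 in the controls. The stretch also held 2 lowered simple repeats, (CTGCCC)n_1897529 and (AGCCA)n_1897530, the second with 14824, 10232 and 6552 reads with the U7 ASO and 46817, 25637 and 27308 in the controls. The nearest raised LTR12 or HERV9 locus was between 4599 and 4949 numbers away from each of the 4. A smaller group joined AluSz_dup2866_103781 and AluSq_dup585_103785 to 2 raised L2a loci, L2a_dup3735_103779 before them and L2a_dup3737_103783 between them, L2a being an ancient long interspersed element. Another joined AluSx_dup1259_4930893 and AluSq2_dup449_4930909 to a raised HERV9 block that held LTR12C_dup3_4930892, LTR12D_4930902, HERV9NC-int_4930903 and HERV9-int_dup2_4930904.

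Lowered AluS loci were few and less firm. AluSx1_dup1483_4647212 held 2, 6 and 0 reads in the U7 ASO libraries, against 52, 35 and 30 in the controls (log2 fold change -3.90, SE 0.93, adjusted p = 0.0224), and its call was lost in 6 of 14 alternatives. AluSx_dup248_4913569 held 10, 5 and 10 reads in the U7 ASO libraries and 49, 38 and 43 in the controls (log2 fold change -2.49, SE 0.61, adjusted p = 0.0276), and its call was lost in 8 of 14. The groups did not overlap at either locus, and none of the tested loci within 20 numbers of them was lowered. The adjusted p reached 0.202 and 0.423 over their alternatives. AluSx1_dup2784_1979653, with 0 reads in every U7 ASO library and 14, 15 and 17 in the controls, did not pass. Of all listed AluS loci, 580 had a read in all 3 U7 ASO libraries and in no control, and 131 had a read in all 3 controls and in no U7 ASO library. These were 0.879% and 0.198% of the AluS loci, beside 1.10% and 0.319% of all listed loci. The U7 ASO libraries were also the deeper ones, and these 2 counts were not compared at equal depth.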

How the data were processed

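The authors deposited raw read counts per repeat locus, in a table per library. STAR 2.5.3a, featureCounts 1.5.0-p1 (Subread), FastQC 0.11.5 and the build GRCh38 are named per the submitters' processing notes. Not given in the sources used here are the repeat annotation and how strand, multi-mapping reads and pairs were handled. Of the AluS counts above 0, 74.2% to 80.4% were even, as when both mates are counted, so they are called reads. Groups and replicate numbers come from the sample titles.

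Loci, and counts summed by repeat name, were each tested over all repeats with edgeR 4.0.16 (quasi-likelihood, two-sided, R 4.3.3), TMM scaling and filterByExpr (minimum count 10, minimum total 15). Benjamini-Hochberg adjustment ran over all features tested, at 0.05. Family sums were added as rows under the scaling of the repeat names. The SE is the fold change divided by the square root of F. CPM values include the TMM factors. Those of single loci are scaled to the reads of tested loci and those of sums to the reads of tested repeat names. CPM of single loci therefore do not add up to CPM of sums.

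Alternatives were DESeq2 1.42.0, limma-voom (limma 3.58.1), other scalings, no filter, halved counts, a replicate block, each library left out, and sums without leading loci. The code was tested on simulated data. The loci named are the 10 called with the highest fold changes, all called with negative ones, and the 5 with the most reads, provided the groups of a called locus did not overlap. Other loci were named after their values were seen. The members, lists and naming rule were chosen with earlier results of these data known.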

Additional observations from a re-analysis of the deposited data

How the results depend on the processing

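Counts of called AluS loci depended on the tool and on single libraries. Raised AluS loci numbered 33 at first, 7 with limma-voom and 11 to 29 when 1 library was left out. Leaving a library out also changed the number of AluS loci tested, from 1013 to between 1659 and 1836. Lowered AluS loci numbered 2 at first, 0 with limma-voom, 0 to 2 with a library left out, and 1 without a count filter, which was AluSq4_dup56_1753409 with reads in 1 library and neither of the 2. Raised AluS names, 0 at first, were 0 to 3 with a library left out and 1 with the replicate block (AluSz6, adjusted p = 0.0426), and lowered names were 1 without a filter (AluSq4, log2 fold change -1.16). The log2 fold change of the AluS sum was 0.23 to 0.39 with a library left out and passed only without U7 ASO replicate 1. With the replicate block it was 0.29 (adjusted p = 0.135). Equal replicate numbers did not pair the libraries: deviations from the group means correlated at 0.063, -0.035 and 0.034 between equal numbers, and U7 ASO replicate 2 correlated best with control ASO replicate 3. The AluS to AluY difference of -0.14 turned to 0.0022 over tested loci only, and the AluS to AluJ difference ran from -0.05 to 0.07 with a library left out. Signs also turned with a library left out for AluSc5 (-0.02 to 0.33), AluSq4 (-1.56 to 0.30, and 0.24 without the 10 leading loci), AluSq10 (-0.38 to 0.05), AluSx_dup2746_3031736 (-0.23 to 0.47) and AluSz_dup2228_4694021 (-0.17 to 0.39). Apart from the left-out libraries and leading loci, the causes were not tested. Of 510 refits of single names and loci, 469 kept direction and side of the threshold. Depth let only 1.53% of AluS loci into the test of single loci.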
